A study of Mus musculus with 2 samples.

Results

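Macrophages in mouse adrenal tissue were followed through 10 genes that mark macrophages or work in them. These were Lyz2, Cd68, Csf1r, Adgre1, C1qa, C1qb, C1qc, Tyrobp, Fcer1g and Mrc1. Whether the cells were resident, and where in the dissected tissue they lay, was not tested. The genes were taken by name from the deposited tables, with every transcript model assigned to them. All 10 had reads in both libraries, out of 16910 annotated nuclear genes with a read in either. They held 24 of 65191 transcript models in replicate 2 and 47 of 125539 in replicate 1. Long-read RNA sequencing reads each RNA copy as a single molecule, so a read can show the whole exon chain of a transcript. Replicate 2 and replicate 1 form 1 group: adrenal tissue from females of the hybrid strain B6CASTF1/J, 2 months old. No treatment, allele or second tissue is named in the labels, so replicate 2 was set against replicate 1. The labels count them as biological replicates and number the animals 4 and 3, but the library labels both carry the number 3 and 1 donor identifier is given for both. An RNA input of 1 µg is given for replicate 1 and none for replicate 2. A p-value therefore measures the difference between 2 libraries, which may be technical.

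Macrophages are tissue phagocytes that clear dying cells and debris, and those of the adrenal gland lie among the steroid-producing cells and along the sinusoids. Their survival depends on the receptor encoded by Csf1r. They digest what they engulf in lysosomes, make complement component C1q, and pass signals from many surface receptors through small adaptor proteins that carry an immunoreceptor tyrosine-based activation motif (ITAM).

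Replicate 2 held 520388 reads and replicate 1 held 1277310, of which 96.6% and 94.7% belonged to annotated nuclear genes. Levels are given as counts per 1000000 of those reads (CPM). A long read counts as 1 molecule, so CPM was not divided by transcript length. With 3 reads taken as the floor of each library, a gene at 0 may still have a level of 5.97 CPM in replicate 2 or of 2.48 CPM in replicate 1. Intervals and floors cover counting error only. Markers of the labelled tissue were present: the sums were 74936 CPM in replicate 2 and 56269 CPM in replicate 1 for the 5 cortex genes on the list, and 6677 and 11580 CPM for the 5 medulla genes. In whole tissue, fewer macrophages and less RNA per macrophage cannot be told apart.

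The 10 genes together had 245 reads in replicate 2 and 658 in replicate 1, or 487.4 and 544.0 CPM, with a mean of 515.7 ± 40.0 CPM (SD, n = 2). Lyz2 alone gave 42.9% of these reads in replicate 2 and 42.1% in replicate 1. By mean level Lyz2 stood first, followed by the 3 C1q chains, Cd68, Csf1r, Fcer1g, Adgre1, Tyrobp and Mrc1. In that order, the library values of neighbours did not overlap between Lyz2 and C1qa, between C1qc and Cd68, and between Cd68 and Csf1r. The exact counting intervals of Cd68 and Csf1r still overlapped in both libraries, and those of C1qc and Cd68 in replicate 2. The other 6 pairs of neighbours overlapped in their values, so their order is not set by these libraries. Among the 9942 genes that reached 3 reads in both libraries, Lyz2 ranked 853 by mean CPM and Mrc1 ranked 8956.

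**Figure D1:**
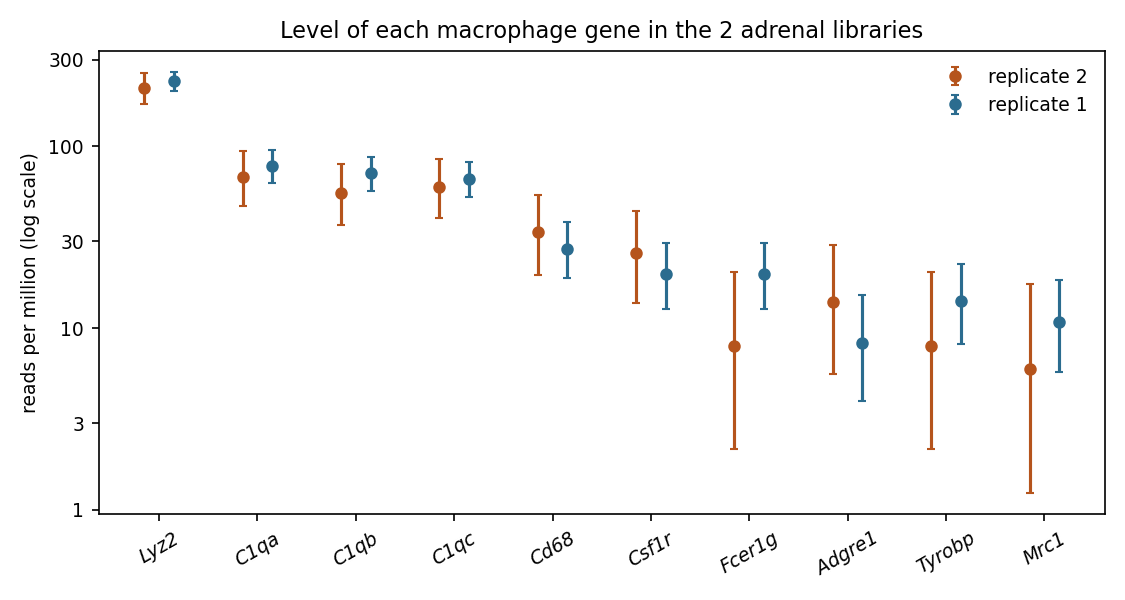
Level of each gene in CPM, which is scaled to reads of annotated nuclear genes (log scale), replicate 2 left and replicate 1 right of each pair; points are 1 library and bars exact 95% Poisson intervals. Lyz2 stands near 219.0 CPM, the 3 C1q genes lie between 55.7 and 77.7 CPM, and Mrc1 has the lowest point at 5.97 CPM.

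Lyz2 encodes lysozyme M, the bactericidal enzyme of macrophages and other myeloid cells (ENSMUSG00000069516.8, chromosome 10, 117277331 to 117282321 of mm10, minus strand). It had 105 reads in replicate 2 and 277 in replicate 1. These were 208.9 and 229.0 CPM, with a mean of 219.0 ± 14.2 CPM (SD, n = 2), and each library's value lay within the exact interval of the other. Lyz2 lies beside a closely similar copy, Lyz1, the lysozyme of intestinal Paneth cells. Reads could therefore be assigned to the wrong copy, which was not tested. Over the coding part, 422 of 444 positions were identical (95.0%), and over the whole transcripts 1211 of 1317 aligned positions were (92.0%). The stretches below were picked as those of their length with the most differences, so the rest of the coding part is more alike. Of the 22 coding positions that differ, 14 lie in them. They are bases 37 to 156 of the coding part of the M21 transcripts, each across an intron, on mm10 from chr10:117280786-117282206 for Lyz2 on the minus strand and chr10:117291174-117292802 for Lyz1. Capitals mark the 14 positions that differ.
Lyz2: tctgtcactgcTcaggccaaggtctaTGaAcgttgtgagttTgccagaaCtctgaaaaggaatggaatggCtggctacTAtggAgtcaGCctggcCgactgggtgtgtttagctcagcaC
Lyz1: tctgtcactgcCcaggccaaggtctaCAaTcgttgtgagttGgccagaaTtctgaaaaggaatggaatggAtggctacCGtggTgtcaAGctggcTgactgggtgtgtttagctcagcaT
Lyz1 had 1 read in replicate 2 and 4 in replicate 1, against 105 and 277 for Lyz2. These are the authors' assignments, and the reads themselves were not analysed here. The other 4 genes of the lysozyme family on the list, Lyzl4, Lyzl6, Lalba and Spaca3, had no read in either library.

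C1qa, C1qb and C1qc encode the chains of C1q, the recognition molecule of the classical complement pathway, whose collagen-like stalks carry globular heads. C1qa (ENSMUSG00000036887.5) had 34 reads in replicate 2 and 94 in replicate 1, or 67.6 and 77.7 CPM. C1qb (ENSMUSG00000036905.8) had 28 and 86 reads, or 55.7 CPM in replicate 2 and 71.1 CPM in replicate 1. C1qc (ENSMUSG00000036896.5) had 30 and 80 reads, or 59.7 CPM in replicate 2 and 66.1 CPM in replicate 1. All 3 were lower in replicate 2, and each library's value lay within the other library's interval for C1qa and C1qc. The means were 72.7 ± 7.13, 63.4 ± 10.9 and 62.9 ± 4.57 CPM in that order of genes (SD, n = 2).

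The 3 chains came in nearly equal amounts. C1qa made up 37.0% of the 92 C1q reads in replicate 2 and 36.2% of the 260 in replicate 1, with exact Clopper-Pearson 95% intervals of 27.1 to 47.7% and 30.3 to 42.3%. C1qb made up 30.4% in replicate 2 and 33.1% in replicate 1. C1qc made up 32.6% in replicate 2 and 30.8% in replicate 1. The order of C1qb and C1qc turned between the libraries, and the intervals of the 3 chains overlapped in both libraries.

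Each of the 3 chains holds a collagen repeat, in which a glycine codon is followed by a pair of other codons, again and again. A glycine codon is any triplet GGN. The longest unbroken run of them held 16 glycine codons in C1qa (codons 62 to 109), 29 in C1qb (codons 31 to 117) and 16 in C1qc (codons 68 to 115). The start of each run is printed with its glycine codons in capitals, from the coding part of the M21 transcripts. The stretches are chr4:136896619-136896708, chr4:136882128-136882217 and chr4:136890493-136890582 of mm10, all on the minus strand.
C1qa: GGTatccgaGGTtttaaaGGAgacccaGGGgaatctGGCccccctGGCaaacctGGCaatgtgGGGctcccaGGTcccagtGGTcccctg
C1qb: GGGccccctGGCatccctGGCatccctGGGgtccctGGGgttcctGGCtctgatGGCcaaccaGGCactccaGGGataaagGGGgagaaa
C1qc: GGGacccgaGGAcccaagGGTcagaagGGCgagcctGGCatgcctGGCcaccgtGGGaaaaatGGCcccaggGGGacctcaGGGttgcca
The coding parts as a whole were far less alike than those of the lysozymes. Of their aligned positions 52.1% were identical between C1qa and C1qb, 51.2% between C1qa and C1qc, and 54.9% between C1qb and C1qc.

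The 3 genes lie side by side on chromosome 4, from 136880129 to 136898803 of mm10 (18675 bases, minus strand), in the order C1qa, C1qc, C1qb along the direction of transcription. C1qa spans 136895917 to 136898803, C1qc 136889804 to 136893065 and C1qb 136880129 to 136886187. Between C1qa and C1qc lie 2851 bases, and between C1qc and C1qb 3616 bases. The annotated chain of exons carried most reads of each gene. C1qa-201 had 29 reads in replicate 2 and 76 in replicate 1, C1qb-201 had 27 and 75, and C1qc-201 had 27 and 65.

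Of all new introns in the 10 genes, those seen in both libraries were 2, and both lie in this cluster. In C1qc, an intron from 136892564 to 136892793 used the annotated acceptor and a donor 50 bases from the annotated one. The exon before it ran on by those bases at its 3′ end and began at the start of the annotated C1qc-202, and the model had 2 reads in replicate 2 and 4 in replicate 1. In C1qb, an intron from 136882329 to 136884242 joined the annotated second exon to an exon that M21 does not hold, inside the annotated first intron. Its donor lies 1800 bases from the nearest annotated donor, and the model had 1 read in replicate 2 and 2 in replicate 1. Both models kept the whole coding chain of the main transcript. At 6 reads and 3 reads over both libraries, these are counts near the floor.

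**Figure D2:**
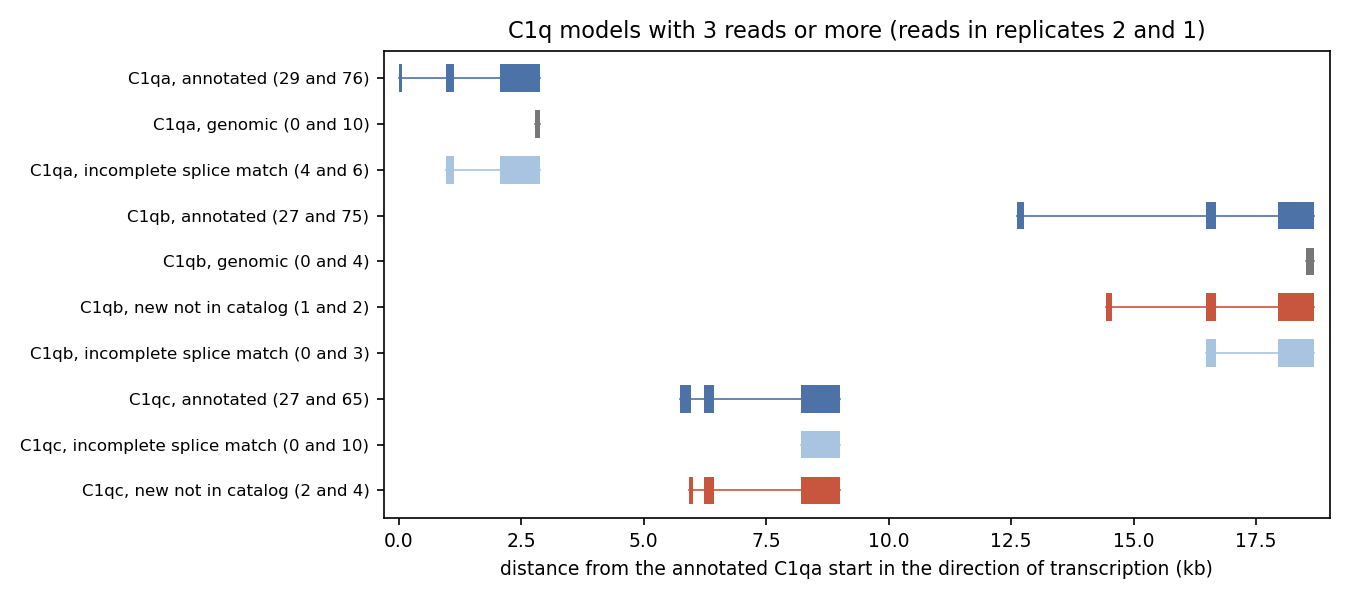
Exons (boxes) and introns (lines) of C1q models with at least 3 reads over both libraries, against distance in kb from the annotated C1qa start in the direction of transcription; brackets give reads in replicates 2 and 1. The annotated model leads each gene, with 29 and 76 reads for C1qa, 27 and 75 for C1qb and 27 and 65 for C1qc, and the red models start after the annotated first exon in C1qb and within it in C1qc.

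Tyrobp and Fcer1g encode the small transmembrane adaptors DAP12 and the Fc receptor gamma chain, which carry an ITAM for receptors that have none. Tyrobp (ENSMUSG00000030579.10, chromosome 7, 30413760 to 30417585 of mm10) was read 4 times in replicate 2 and 17 times in replicate 1, or 7.96 and 14.1 CPM. Its mean was 11.0 ± 4.31 CPM (SD, n = 2). Fcer1g (ENSMUSG00000058715.11, chromosome 1, 171229572 to 171234365, minus strand) had 4 and 24 reads, or 7.96 CPM in replicate 2 and 19.8 CPM in replicate 1. Its mean was 13.9 ± 8.40 CPM (SD, n = 2), the widest spread of the 10 genes relative to the mean. Both adaptors were lower in replicate 2, where each rested on 4 reads.

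The motif itself is printed because it is what the 2 adaptors have in common. In capitals are the tyrosine codons and the leucine codons of the motif. It takes codons 92 to 106 of 114 in Tyrobp and codons 65 to 79 of 86 in Fcer1g, and in both genes it is split between exons 4 and 5 of 5. The sequences come from M21 transcripts Tyrobp-201 and Fcer1g-201, at chr7:30415670-30417382 on the plus strand and chr1:171229889-171230072 on the minus strand of mm10.
Tyrobp: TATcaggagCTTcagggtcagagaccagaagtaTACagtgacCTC
Fcer1g: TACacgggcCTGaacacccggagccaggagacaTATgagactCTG
A spliced read holds the whole motif only if it crosses that last intron. For Tyrobp, 3 of 4 reads in replicate 2 and 17 of 17 in replicate 1 were of Tyrobp-202, which has the same introns as Tyrobp-201. For Fcer1g, 4 of 4 reads in replicate 2 and 16 of 24 in replicate 1 were of Fcer1g-201. In replicate 1 a further 3 Fcer1g reads came from a single-exon model that ran through 3 introns. A model that skipped exon 4, the 21 bases of 171230067 to 171230087 that hold the first bases of the motif, had 2 reads and used a donor 16 bases from an annotated one. Neither model was seen in replicate 2.

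Csf1r encodes the receptor for the growth factors CSF1 and IL-34 (ENSMUSG00000024621.16, chromosome 18, 61100598 to 61132149 of mm10). It had 13 reads in replicate 2 and 24 in replicate 1, or 25.9 and 19.8 CPM, with a mean of 22.9 ± 4.26 CPM (SD, n = 2). Of its 6 annotated transcripts only Csf1r-202 had reads, with 11 in replicate 2 and 9 in replicate 1. A model that lacked its first exon had 1 read in replicate 2 and 5 in replicate 1. A single-exon model in the 3′ part had 0 and 4 reads. The other 7 models had 1 read each, and 4 of these held an intron absent from M21.

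Adgre1, the F4/80 antigen used to stain mouse macrophages (ENSMUSG00000004730.15, chromosome 17, 57358691 to 57483527), was read 7 times in replicate 2 and 10 times in replicate 1. These were 13.9 and 8.27 CPM, with a mean of 11.1 ± 4.00 CPM (SD, n = 2). Its main transcript, Adgre1-202, has 22 exons and had 5 reads in replicate 2 and 7 in replicate 1. The other 4 annotated transcripts had none. A model without 3 of the internal exons, which M21 does not list as a chain, had 0 and 2 reads.

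Mrc1, the mannose receptor CD206 (ENSMUSG00000026712.3, chromosome 2, 14229392 to 14332057), was read 3 times in replicate 2 and 13 times in replicate 1. These were 5.97 and 10.7 CPM, with a mean of 8.36 ± 3.38 CPM (SD, n = 2), the lowest of the 10 genes. Mrc1-201, of 30 exons and 5374 bases, had 2 reads in replicate 2 and 8 in replicate 1, so complete intron chains of the longest transcript among the 10 were read in both libraries.

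Cd68, a glycoprotein of the lysosomal membrane (ENSMUSG00000018774.13, chromosome 11, 69664213 to 69666153, minus strand), was read 17 times in replicate 2 and 33 times in replicate 1. These were 33.8 and 27.3 CPM, with a mean of 30.6 ± 4.62 CPM (SD, n = 2). Cd68-201 took 16 of them in replicate 2 and 24 in replicate 1. A model that kept the annotated first intron of 83 bases had 0 reads in replicate 2 and 8 in replicate 1. At the depth of replicate 2, 0 of 17 reads allows a share of up to 19.5% (exact Clopper-Pearson 95% interval), and the share in replicate 1 was 24.2% with an interval of 11.1 to 42.3%.

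None of the 10 genes differed between replicate 2 and replicate 1 past the thresholds. Fisher's exact test (two-sided) set each gene's reads against all other nuclear reads for 10170 genes. A call needed a Benjamini-Hochberg adjusted p under 0.05 together with a ratio of 2-fold or more. Across all genes tested, 971 were called (9.55%), of which 606 were higher and 365 lower in replicate 2, and 2885 had an unadjusted p under 0.05. Of the 10 macrophage genes, 0 were called and 0 had an unadjusted p under 0.05, and the lowest adjusted p was 0.277 for Fcer1g. The log2 ratio was above 0 for 3 genes (Cd68, Csf1r and Adgre1) and below 0 for 7, with a median of -0.16 over the 10 and -0.06 over all genes tested.

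The log2 ratio with its counting SE was -0.13 ± 0.17 for Lyz2, -0.19 ± 0.29 for C1qa, -0.34 ± 0.31 for C1qb and -0.13 ± 0.31 for C1qc. It was 0.33 ± 0.43 for Cd68, 0.41 ± 0.49 for Csf1r and 0.78 ± 0.69 for Adgre1, and -0.69 ± 0.76 for Tyrobp and -0.68 ± 0.87 for Mrc1. Fcer1g had the ratio farthest from 0, at -1.18 ± 0.74 with an unadjusted p of 0.0965 by the exact test, on 4 reads in replicate 2 and 24 in replicate 1. Depth set how much could be seen. The exact 95% interval of the ratio left out a 2-fold difference in either direction for Lyz2 (0.722 to 1.15), C1qa (0.570 to 1.30) and C1qc (0.572 to 1.39). For the other 7 it reached past 2-fold on at least 1 side, as far as 0.101 to 2.02 for Mrc1 and 0.544 to 4.90 for Adgre1, so a difference of that size cannot be left out for them at this depth. Over all genes, short transcripts had lower ratios. The median log2 ratio was -0.51 over 941 genes with a main transcript under 1000 bases, which include Tyrobp and Fcer1g, and 0.006 over 4727 genes of at least 1000 and under 3000 bases. The part of length in the values of the 2 adaptors was not tested on its own, and with a trend in length and GC content removed Fcer1g had a log2 ratio of -0.95.

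**Figure D3:**
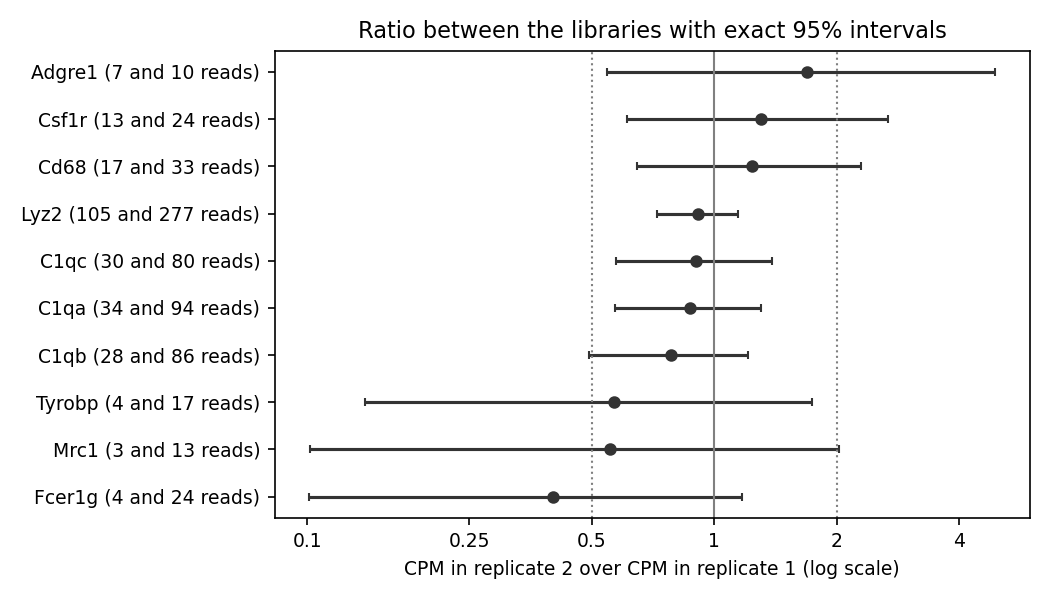
Ratio of CPM in replicate 2 over replicate 1 for each gene (log scale), with exact 95% intervals as bars, a solid line at 1 and dotted lines at 2-fold either way; brackets give the reads in replicates 2 and 1. Every interval includes 1, and those of Lyz2, C1qa and C1qc stay inside the dotted lines.

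Most reads of the macrophage genes were of annotated transcripts, with the higher share in replicate 2. The deposited tables give each model a class. Annotated models match GENCODE M21, incomplete splice matches follow only a stretch of an annotated intron chain, new models hold chains that M21 lacks, and genomic models are none of these. Annotated models took 93.1% of the 245 reads in replicate 2 and 85.9% of the 658 in replicate 1, with exact intervals of 89.1 to 95.9% and 83.0 to 88.4%. Over all genes that had 10 or more reads in both libraries, the pooled share was 82.9% in replicate 2 and 78.2% in replicate 1. The median of those genes was 85.7% in replicate 2 and 78.3% in replicate 1. Lyz2 held 105 of the 245 reads and 277 of the 658, and without it annotated models took 126 of 140 reads (90%) in replicate 2 and 298 of 381 (78.2%) in replicate 1. Genomic models took 0 of 245 reads in replicate 2 and 26 of 658 (3.95%) in replicate 1, against a pooled 2.08% and 3.99% over all those genes. The median of those genes was 0% in replicate 2 and 1.56% in replicate 1. Without Lyz2, genomic models of the macrophage genes took 0 of 140 and 21 of 381 (5.51%). Models with an intron absent from M21 took 4 reads in replicate 2 and 18 in replicate 1, or 1.63% and 2.74%, against a pooled 4.83% and 4.29% over all those genes. Without Lyz2, they took 4 of 140 and 16 of 381 reads.

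Of the 57 different models of the 10 genes, 13 were annotated, 14 were seen in both libraries and 29 had a single read. The number of models seen moves with depth, and replicate 1 was the deeper library. Of the reads of Lyz2, Lyz2-201 took 97.1% in replicate 2 and 96.4% in replicate 1. Single-exon models held 2 of 245 reads in replicate 2 and 36 of 658 in replicate 1 (0.816% and 5.47%). Over 6353 genes with 10 or more reads in both libraries, the pooled share was 2.82% and 5.82%, and the median 0% and 3.70%. The largest single-exon models of the macrophage genes in replicate 1 were an incomplete splice match of C1qc with 10 reads, and genomic models of C1qa with 10, Lyz2 with 5, C1qb and Csf1r with 4 each and Fcer1g with 3. Suffix models without the first exon added 4 and 6 reads for C1qa and 0 and 3 reads for C1qb.

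The share of annotated reads was tested gene by gene with Fisher's exact test (two-sided) over the 6653 genes that had 10 or more reads in both libraries. Among all of them 633 were called at an adjusted p under 0.05 and at least 10 percentage points (9.51%), 619 of these with the higher share in replicate 2. Of the 6 macrophage genes deep enough to be tested, 0 were called. Csf1r came closest, with 84.6% (11 of 13) in replicate 2 and 37.5% (9 of 24) in replicate 1, an unadjusted p of 0.0140 and an adjusted p of 0.102 by the exact test. Cd68 followed with 100% (17 of 17) in replicate 2 and 72.7% (24 of 33) in replicate 1, with an adjusted p of 0.132 by the exact test. The same test on the share of the main transcript called 580 of 6635 genes (8.74%) and 0 of the 6. Adgre1, Tyrobp, Fcer1g and Mrc1 had too few reads for these tests.

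**Figure D4:**
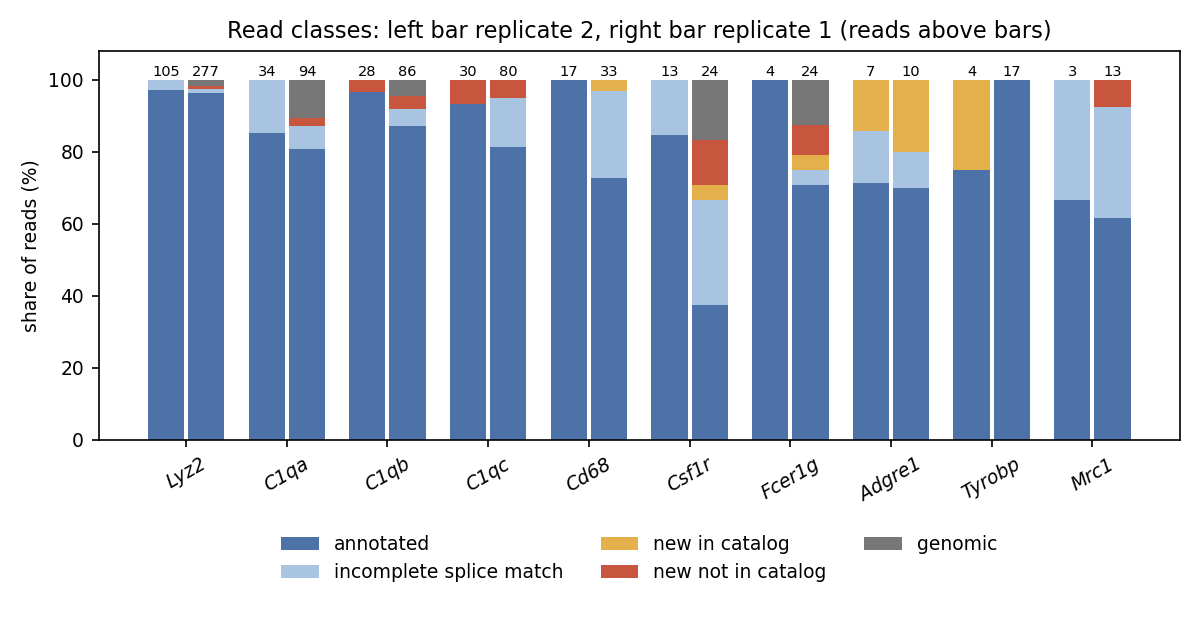
Share of each gene's reads in the 5 model classes (percent), with the left bar of each pair for replicate 2, the right bar for replicate 1 and the number of reads above each bar. Lyz2 is almost wholly annotated in both libraries (97.1% and 96.4%), and Csf1r has the lowest annotated share, at 37.5% of 24 reads in replicate 1.

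Most reads also spanned the coding part. Models that held the coding part of the main transcript with all of its introns and no others took 95.1% of reads in replicate 2 and 88.4% in replicate 1. Over the 6370 of the 6653 genes whose main transcript is coding, the pooled share was 83.3% and 78.1%, and without Lyz2 that of the macrophage genes was 93.6% and 82.7%. Models that began within 100 bases of an annotated start took 95.5% and 90.6%, against a pooled 93.0% and 88.4% over 6653 genes. The median of those genes was higher than the macrophage share in both libraries, at 96.3% in replicate 2 and 91.8% in replicate 1. Without Lyz2, the macrophage share was 93.6% in replicate 2 and 85.8% in replicate 1, in replicate 1 also below the pooled share over all those genes. These are ends of the deposited models, and an annotated model carries the annotated ends whatever the ends of its reads. Among the longest transcripts, the annotated start was reached in 11 of 13 reads of Csf1r in replicate 2 and 12 of 24 in replicate 1, in 6 of 7 and 9 of 10 of Adgre1, and in 2 of 3 and 11 of 13 of Mrc1.

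Other macrophage genes were read as well, with a similar sum. Of 24 further pan-macrophage genes, 23 had a read and 12 reached 3 reads in both libraries, with summed levels of 463.5 CPM in replicate 2 and 471.3 CPM in replicate 1. Lgmn, a lysosomal protease, had 214.9 CPM in replicate 2 and 181.9 CPM in replicate 1, and Ctss, a cysteine protease, had 35.8 CPM in replicate 2 and 45.5 CPM in replicate 1. The 1 gene of 14 tested that passed the thresholds was Laptm5, a lysosomal membrane protein of blood-derived cells, at 37.8 CPM (19 reads) in replicate 2 and 14.1 CPM (17 reads) in replicate 1, with a log2 ratio of 1.42 and an adjusted p of 0.0221 by Fisher's exact test. Over all genes tested 9.55% were called, the share to set beside the calls in this list and in those below. Itgam, the integrin chain CD11b, had 0 reads in both libraries, which leaves room for a level of 5.97 CPM in replicate 2 or of 2.48 CPM in replicate 1.

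Of 18 genes linked to tissue-resident macrophages, 16 had a read, and 6 reached 3 reads in both libraries. Timd4 and Vsig4 had none. Their sum of 1106 CPM in replicate 2 and 1431 CPM in replicate 1 came mostly from Gas6, a ligand of TAM receptor kinases that other cell types also make, with 740.1 and 1215 CPM. Selenop, a secreted selenoprotein, followed with 250.7 and 142.2 CPM. Axl, a TAM receptor kinase, had 49.7 CPM in replicate 2 and 15.7 CPM in replicate 1, and was the 1 gene called of 6 tested, with a log2 ratio of 1.65 and an adjusted p of 0.00198 by Fisher's exact test. The median log2 ratio of the tested genes was 0.32 in this list and -0.28 in the pan-macrophage list.

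Genes of pathways in which some of the 10 act were also read. In the complement list, where C1q acts, all 15 genes had a read, and the sum was 2119 CPM in replicate 2 and 1744 CPM in replicate 1. C3, the central component, had 978.8 and 922.7 CPM. Calr, a chaperone that binds C1q, had 210.9 and 199.3 CPM, and C2, a protease subunit of the C3 convertase, had 202.9 and 143.9 CPM. Serping1, the C1 inhibitor, was the 1 gene called of 13 tested, at 137.3 CPM in replicate 2 and 62.8 CPM in replicate 1, with a log2 ratio of 1.13 and an adjusted p of 7.18e-05 by Fisher's exact test.

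Among 18 genes of ITAM signalling, 15 had a read, 7 reached 3 reads in both libraries, and 0 of 6 tested were called. The sums were 256.6 CPM in replicate 2 and 253.8 CPM in replicate 1. The inhibitory receptor Sirpa led with 119.4 and 135.6 CPM, followed by the kinase Lyn with 63.7 and 62.8 CPM and the Fc receptor Fcgr3 with 23.9 and 12.4 CPM. The kinase Syk had 3 reads in each library, Trem2 had 2 in replicate 2 and 6 in replicate 1, and Fgr, Fcgr4 and Clec7a had none. Fcgr3 and Trem2 stand on this list and on the pan-macrophage list. Among 8 genes of the CSF1 receptor axis 7 had a read, and 0 of 4 tested were called. The transcription factor Irf8 had 125.3 CPM in replicate 2 and 92.6 CPM in replicate 1. Il34, a ligand of the Csf1r product, had 55.7 and 40.5 CPM, above Csf1, the other ligand, with 9.95 CPM (5 reads) and 4.96 CPM (6 reads). Csf2ra, a subunit of the GM-CSF receptor, had 37.8 and 37.2 CPM.

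Genes of monocytes and neutrophils were at or near the floor, and those of dendritic cells, lymphocytes and mast cells rested mostly on 1 gene each. The 5 monocyte genes summed to 1.99 CPM (1 read) in replicate 2 and 6.61 CPM (8 reads) in replicate 1. Of these, Plac8 had 0 reads in replicate 2 and 7 in replicate 1 (5.79 CPM), and Ly6c2 and Chil3 were among those at 0. The 9 neutrophil genes summed to 1 read in each library, with S100a8, S100a9, Ly6g and Elane among the 8 at 0. The 8 dendritic cell genes summed to 17.9 and 13.2 CPM, nearly all from Zbtb46, with Xcr1, Clec9a and Siglech at 0. The 11 lymphocyte genes summed to 35.8 and 38.0 CPM, most of it Ighm at 27.9 and 33.1 CPM, with Cd3e, Cd8a and Ms4a1 at 0. The 8 mast cell genes summed to 77.6 and 61.2 CPM, of which the histamine-forming enzyme Hdc gave 73.6 and 57.1 CPM, while Ms4a2 and Fcer1a were at 0. Lyz2 and the adaptors are also used by several of these cells. Some pan-macrophage genes lay as low, with 0 and 6 reads for Cx3cr1 and 2 and 2 for Spi1 in replicates 2 and 1.

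Genes of other cells in the tissue spanned a wide range. The sums of the 9 endothelial genes were 521.2 CPM in replicate 2 and 381.2 CPM in replicate 1, with 0 of 3 tested called. The 7 adipocyte genes summed to 8917 and 8333 CPM, with 0 of 7 called. Of 6 capsule and fibroblast genes, at 435.7 and 572.2 CPM, the collagen gene Col1a2 was called lower in replicate 2, at 9.95 CPM against 40.5 CPM in replicate 1 (adjusted p of 0.00494 by Fisher's exact test). Of 5 cortex genes Cyp21a1, the steroid 21-hydroxylase, was called higher in replicate 2 (log2 ratio of 1.00). Of 5 medulla genes Pnmt and Chgb were called lower, with log2 ratios of -1.03 and -1.19. The sums of the macrophage genes were 487.4 CPM in replicate 2 and 544.0 CPM in replicate 1, while the cortex sum was higher and the medulla sum lower in replicate 2. The part of tissue makeup in the macrophage values was not tested.

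**Figure D5:**
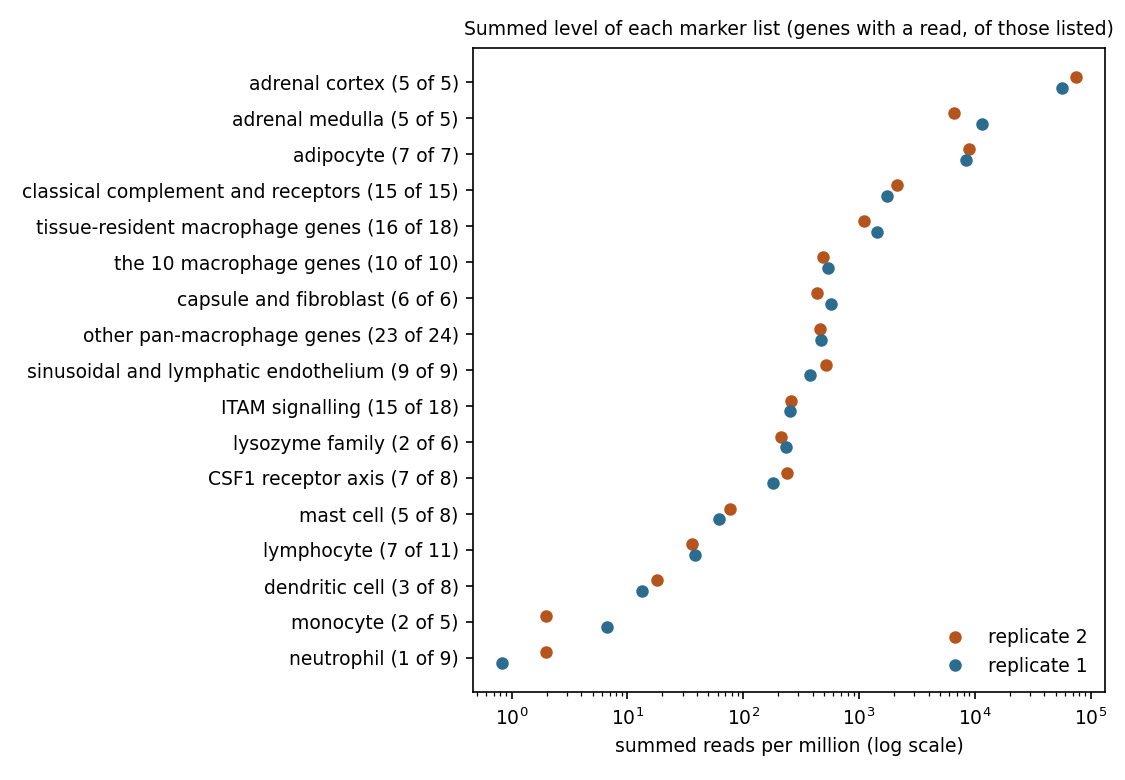
Summed CPM of each gene list (log scale), replicate 2 above replicate 1 in each pair, with brackets giving the listed genes that had a read. The 10 macrophage genes sum to 487.4 and 544.0 CPM, and the neutrophil and monocyte lists lie lowest, at or under 6.61 CPM.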

How the data were processed

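Long-read RNA sequencing of 2 adrenal libraries of 1 group was analysed. The authors deposited, per library, whole-number read counts per transcript model, not normalised, with the models' exons. Per the deposited readme files, they derive from a filtered alignment on mm10 with GENCODE M21, and new models carry the source TALON. For aligner, platform and TALON version the sources used here give nothing. Lengths of models in bases are as deposited by the authors. Reads of the hybrid's 2 parental alleles were not separated.

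Reads of all classes were added up per annotated gene and scaled to CPM over annotated nuclear genes (502655 reads in replicate 2, 1209457 in replicate 1). Log2 ratios used 0.5 added reads. Fisher's exact tests took genes with 10 or more reads over the 2 libraries together, and tests of shares took genes with 10 or more in each (scipy 1.17.1). Annotated exons of the 10 genes were checked against M21, and the tests were tested on simulated data. The alternatives used edgeR 4.0.16 and DESeq2 1.42.0 for scaling factors. The 10 genes, the 16 other lists and the tests were chosen with earlier results of these data known. All 10 genes were named, with the 3 most abundant or every called gene of each list (of other cell types, those a value rests on) and models with at least 3 reads. Some genes at 0 or with few reads, Csf1 and models with 2 reads were named after their values were seen. Some genes that these rules would name are not reported here.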

Additional observations from a re-analysis of the deposited data

How the results depend on the processing

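The 10 macrophage genes were retested under scaling by TMM and by DESeq2 size factors, 2 other read minimums, 1 added read, annotated transcripts alone, all classes except genomic, replicate 1 thinned in 1 draw, and a trend in length and GC content removed. Scaling and read minimums could not turn a ratio here, and over the other 5 settings 48 of 49 log2 ratios kept their direction. Called were 0 of the genes under any of these or with no fold minimum, while over the whole table the share called ran between 5.24% with no read minimum and 13.9% with annotated transcripts alone, and was 17.9% with no fold minimum, against 9.55%. Lyz2 turned to 0.085 (adjusted p 0.849 by the exact binomial test) with the trend removed, and the cause was not tested. The lowest adjusted p was 0.0964, for Csf1r at a log2 ratio of 1.45 with annotated transcripts alone. With at least 50 reads 5 of the 10 could be tested, and with replicate 1 thinned 9, all but Mrc1. Scaling moved all genes by 0.02 (TMM) or 0.01 (DESeq2) on the log2 scale.

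Genes called over the whole table numbered 1823 with no fold minimum, against 971. For the annotated share, 371 genes were called with at least 50 reads in each library and 205 with incomplete splice matches included, against 633. With those included, the difference for C1qc turned to -1.67 points, against 12.1. For the main transcript share 346 genes were called with at least 50 reads in each library, against 580. With annotated transcripts alone, both in the reads of the 10 genes and in the total they were divided by, their summed level was 582.3 CPM, against 515.7. In that setting C1qa took 34.9% of C1q reads, against 36.6%. A higher read minimum tests fewer genes by construction, and annotated transcripts alone give CPM a smaller total by construction. For the other shifts the cause was not tested. Without Lyz2, a setting chosen after seeing the data, the mean share of reads in annotated models was 84.1%, against 89.5%. Left with 1 library, the summed level ran between 487.4 and 544.0 CPM. The shares of C1qa, C1qb and C1qc then ran between 36.2 and 37.0%, 30.4 and 33.1%, and 30.8 and 32.6%. No paired analysis was possible because there is 1 group. Depth limits the 4 genes with the fewest reads most, since replicate 2 held 3 to 7 reads of each.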

Other observations

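Other transcripts overlap the macrophage genes. Hmgxb3, a protein-coding gene on the opposite strand, overlaps the 3′ end of Csf1r and had 11 reads in replicate 2 and 28 in replicate 1. Of the Csf1r models with reads, only Csf1r-202 reached into that overlap, and its reads were assigned to a chain of 21 exons. That model carries the annotated end, so whether its reads reached the overlap was not tested. The sources used here do not state whether counting used strand. Mir511 lies within Mrc1 and Mir6983 within Csf1r, and both miRNA genes had 0 reads in both libraries. New models antisense to a macrophage gene held at most 1 read in a library: Cd68 had 1 and 0 in replicates 2 and 1, Adgre1 1 and 1, Fcer1g 1 and 0, and Mrc1 0 and 1.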
